A study of Mus musculus with 4 samples.

Results

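Expression of 40 genes for enzymes of mucin-type glycosylation was examined in female C57BL/6J mice with the genotype Nkx2.3-/-. The tissue was the sublingual gland, whose saliva is rich in mucins. The genes were taken by symbol from the deposited table of read counts, and all 40 had a row among its 24411 symbols. By step, 10 start the O-glycan chain, 6 act on its core, 8 extend or branch it, 10 add sialic acid, and 6 add fucose or another cap. Of the 6 core genes, C1galt1c1 encodes a chaperone. The 4 libraries fall into 2 ages, with 32 weeks in replicates 3 and 4 and 8 weeks in replicates 1 and 2. Every gland carried the knockout of Nkx2-3, a homeobox gene, so no value here can be set against a gland with an intact gene. The labels do not say whether each library came from its own animal, and p-values therefore measure the spread between these libraries, which may be technical.

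Mucins are secreted proteins whose serine- and threonine-rich stretches carry dense chains of sugars. Polypeptide GalNAc-transferases in the Golgi attach the first N-acetylgalactosamine, and a core is then built on it by adding galactose (core 1) or N-acetylglucosamine (core 3), with further branches giving core 2 and core 4. Galactose and N-acetylglucosamine extend the chain, and sialic acid, fucose, sulfate or N-acetylgalactosamine ends it. Sialic acid and sulfate give salivary mucins their charge, and the caps form blood group and related antigens.

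Depth reached 16484772 and 16111122 counts at 32 weeks, against 12925869 and 14265485 counts at 8 weeks. Levels are given as CPM, read counts divided by the library total and multiplied to a common scale, with trimmed mean of M-values (TMM) factors. Where no read was counted, the upper limit of 3 counts is 0.174 to 0.221 CPM by library and covers counting error only. Nkx2-3 itself had 21 and 29 counts at 32 weeks, against 31 and 28 counts at 8 weeks, and the labels do not say which stretch of it is missing. Markers of the labelled tissue were present in each library: Muc19, the gel-forming mucin of this gland, stood between 12021 and 20281 CPM, and Aqp5, the acinar water channel, between 242 and 602 CPM. Of 12 mucous acinar markers none was at 0 in all libraries.

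A library stood apart on some genes of other tissues. Amy1, the salivary amylase gene typical of the parotid gland, had 29 and 28 counts at 32 weeks, against 2059 and 29 counts at 8 weeks, and Smr3a, a submandibular gene, had 0 and 0 counts at 32 weeks, against 674 and 0 counts at 8 weeks. Car3, abundant in fat and muscle, had 1 and 51 counts at 32 weeks, against 274 and 40 counts at 8 weeks. All were highest in 8-week replicate 1, and they were chosen after their values were seen. The list of 17 submandibular and parotid secretory genes, of which Bpifb1 was at 0, summed to 52076 and 65407 CPM at 32 weeks, against 63062 and 32573 CPM at 8 weeks, most of it from Scgb genes. The list did not follow Amy1 and Smr3a as a whole. Of its 13 genes tested, 3 were highest in 8-week replicate 1, 7 in 8-week replicate 2 and 3 in 32-week replicate 4. The 8 adipocyte markers, none at 0 in all libraries, summed to 30.1 and 40.9 CPM at 32 weeks, against 75.4 and 27.3 CPM at 8 weeks. The median log2 fold change of the enzyme genes tested was 0.12 when 8-week replicate 1 was left out, beside 0.01 with it, and none passed the test of age either way. The part of other tissue in the enzyme levels was not tested.

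The libraries did not divide by age: over the 32 enzyme genes that passed the low-count filter, the median absolute log2 difference was 0.15 between 32-week replicate 4 and 8-week replicate 1. It was 0.26 for the pair at 32 weeks and 0.43 for the pair at 8 weeks. Across the ages, 32-week replicate 3 differed by 0.23 from 8-week replicate 1 and by 0.30 from 8-week replicate 2. The value for 32-week replicate 4 and 8-week replicate 2 was 0.32. Over all genes tested, 32-week replicate 4 and 8-week replicate 1 differed by 0.176, against 0.181 for the 32-week pair and 0.331 for the 8-week pair. In a bulk gland, fewer cells of a type and less RNA per cell cannot be told apart.

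The 40 genes together held 2537 and 2563 CPM at 32 weeks, against 2865 and 2345 CPM at 8 weeks. Divided by transcript length, sialyltransferases made up the largest of the 5 step sums in each library, with 373 and 358 CPM per kilobase at 32 weeks, against 409 and 375 CPM per kilobase at 8 weeks. GalNAc-transferases came next, with 216 and 234 CPM per kilobase at 32 weeks, against 276 and 185 CPM per kilobase at 8 weeks. The core sum lay between 66.2 and 93.6 CPM per kilobase, the extension sum between 25.7 and 34.7, and the sum for fucose and other caps between 13.9 and 30.4. Expression was concentrated in few genes. St3gal4, St3gal1 and Galnt7 had mean levels of 203, 171 and 119 CPM per kilobase, followed by B3gnt6 at 52.8 and Galnt12 at 43.6, while 9 of the 40 genes stayed under 1 CPM in every library.

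**Figure D1:**
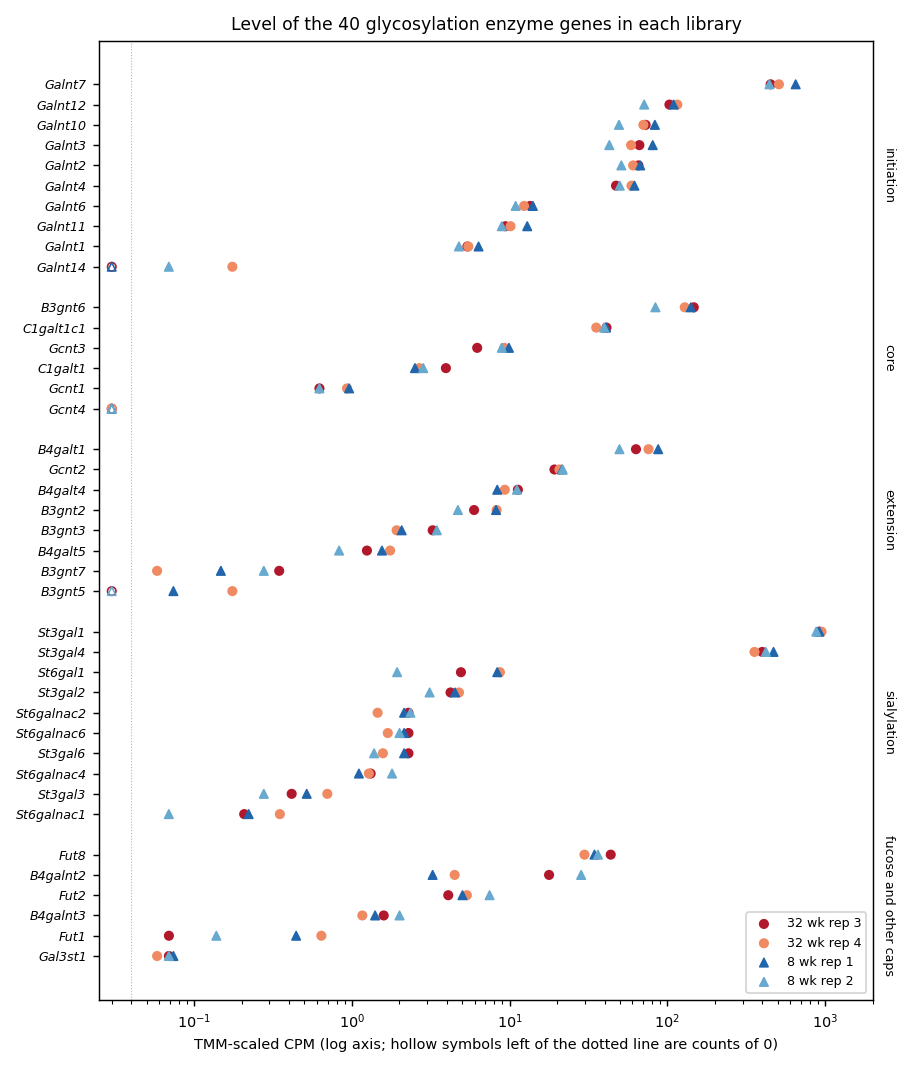
TMM-scaled CPM (log axis) of each of the 40 genes, grouped by step, with circles for the 32-week and triangles for the 8-week libraries. The 4 points of St3gal1 nearly coincide (878 to 948 CPM), and B4galnt2 shows the widest spread among genes above 1 CPM.

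Promoter windows of 250 bases before the annotated start are shown for 4 of the genes on which the results turn. No window was matched for B3gnt6, St3gal1 or Galnt12, so these could not be shown. Galnt7, B4galt1 and St3gal4 lead the initiation, extension and sialylation steps by mean share per transcript length. B4galnt2 varied most between libraries among the 32 genes that passed the low-count filter. The sequences are from RefSeq on GRCm38.p6, all on the minus strand and written 5′ to 3′. They lie at chr8:57653056-57653305, chr4:40853985-40854234, chr9:35116865-35117114 and chr11:95914872-95915121 in that order. Capitals mark the GC box GGGCGG or its reverse complement CCGCCC.
Galnt7: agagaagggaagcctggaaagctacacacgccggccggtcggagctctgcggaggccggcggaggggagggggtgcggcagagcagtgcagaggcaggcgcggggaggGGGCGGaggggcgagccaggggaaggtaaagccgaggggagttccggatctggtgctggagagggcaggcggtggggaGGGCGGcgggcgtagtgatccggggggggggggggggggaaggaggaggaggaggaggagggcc
B4galt1: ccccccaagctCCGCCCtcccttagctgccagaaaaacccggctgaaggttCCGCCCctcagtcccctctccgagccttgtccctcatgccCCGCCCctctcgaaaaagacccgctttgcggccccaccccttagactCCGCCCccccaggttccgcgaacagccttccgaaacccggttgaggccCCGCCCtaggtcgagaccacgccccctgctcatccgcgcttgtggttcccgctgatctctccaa
St3gal4: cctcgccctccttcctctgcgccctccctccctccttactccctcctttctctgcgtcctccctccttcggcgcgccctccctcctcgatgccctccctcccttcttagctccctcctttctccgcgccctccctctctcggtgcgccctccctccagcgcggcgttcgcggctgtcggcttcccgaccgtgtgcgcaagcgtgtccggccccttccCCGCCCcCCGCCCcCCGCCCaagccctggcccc
B4galnt2: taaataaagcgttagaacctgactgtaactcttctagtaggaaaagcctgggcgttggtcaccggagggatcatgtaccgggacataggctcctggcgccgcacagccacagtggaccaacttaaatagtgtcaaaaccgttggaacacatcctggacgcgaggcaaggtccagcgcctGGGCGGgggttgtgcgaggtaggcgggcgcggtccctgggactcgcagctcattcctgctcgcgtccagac

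The GC box occurred 2 times in the Galnt7 window, 5 times in that of B4galt1, 3 times in that of St3gal4 and 1 time in that of B4galnt2. RefSeq windows were matched for 28 of the 40 genes, some with several starts, and 23 of their 43 windows held a GC box (53.5%), against 32.7% of all 32851 windows. GC content was 73.6%, 66.4% and 72.8% in the Galnt7, B4galt1 and St3gal4 windows and 58.4% in the B4galnt2 window. The NK2 homeobox letters CAAGTG or CACTTG were in 2 of the 43 windows, those of B3gnt5 and St3gal6, and in 11.6% of all windows. The letters ACGTG or CACGT, the core of the XBP1 and ER stress element, were in 8 of the 43 windows and in 16.6% of all windows. The E-box CAGCTG, which reads the same on both strands, was in 3 of the 43 windows and in 13% of all windows. GC box, NK2, ACGTG and E-box letters were each searched on both strands and may overlap one another. A match is a description and not a binding site. None of the last 3 was in the 4 windows shown, which says only that these letters are not in these 250 bases.

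Initiation was led by Galnt7 in every library. Galnt7, a GalNAc-transferase that prefers peptides already carrying a GalNAc, lies on NCBIM37 chromosome 8 (60002625 to 60131829, minus strand) and its longest coding transcript has 12 exons. It stood at 451 and 509 CPM in the 32-week libraries and at 650.0 and 443 CPM in the 8-week libraries. The 8-week values enclosed both 32-week values. Divided by transcript length, Galnt7 held 48.5% and 50.5% of the summed level of the 10 GalNAc-transferases at 32 weeks and 54.7% and 55.5% at 8 weeks. By counts alone its share was 54.1% (95% Wilson interval 53.2 to 55.0) and 56.5% (55.7 to 57.2) at 32 weeks, against 59.9% (59.1 to 60.7) and 60.5% (59.6 to 61.5) at 8 weeks. These intervals cover counting error only. The lower share at 32 weeks was not tested, and with 2 libraries against 2 the smallest exact permutation p is 0.333.

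Galnt12, whose enzyme also acts on partly glycosylated mucin peptides, was second per length in every library. It stood at 103 and 115 CPM at 32 weeks, against 109 and 71.2 CPM at 8 weeks. Its per-length share of the step was 20.8% and 21.6% at 32 weeks and 17.3% and 16.8% at 8 weeks. The 2 ages thus did not overlap in this share, while they did in CPM. In CPM, both 32-week libraries lay above both 8-week libraries for 14.4% of all genes tested. The Galnt12 and Galnt7 shares are parts of the same sum and so are not independent, and the difference was not tested. Per length, Galnt7 exceeded Galnt12 by 2.32 to 3.30-fold over the 4 libraries. Galnt12 lies on chromosome 4 (47104781 to 47135942, plus strand).

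Galnt3, Galnt2 and Galnt10 followed at levels that overlapped between libraries. Their ranges were 11.02 to 20.8, 12.4 to 16.3 and 10.5 to 17.7 CPM per kilobase of transcript, in that order. Galnt3, known for the glycosylation of the phosphate hormone FGF23, had 66.4 and 58.8 CPM at 32 weeks, against 80.7 and 42.8 CPM at 8 weeks. Both extremes were thus 8-week libraries. Galnt2, a broadly expressed initiating enzyme, shares 3854 exonic bases with the gene model Gm20388 on the same strand, and its counts are uncertain to that extent. Galnt4, which like Galnt7 and Galnt10 adds GalNAc to glycosylated peptides, ranged from 9.28 to 12.1 CPM per kilobase. Galnt11, Galnt6 and Galnt1 lay lower, at 3.49 to 5.06, 2.87 to 3.69 and 1.16 to 1.55 CPM per kilobase. Galnt14 had 0 and 3 counts at 32 weeks, against 0 and 1 counts at 8 weeks.

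The libraries at 8 weeks were the extremes for most GalNAc-transferases. Of the 9 tested, 8 were highest in 8-week replicate 1, the exception being Galnt12, where 24.9% of all genes tested were. Likewise 8 were lowest in 8-week replicate 2, the exception being Galnt4, where 35.3% of all genes tested were. The first of these libraries is the one that also held the most Amy1, Smr3a and Car3. Relative to each gene's mean log2 level, the median of the 9 was 0.07 and 0.00 in the 32-week libraries and 0.20 and -0.20 in the 8-week libraries. The mucous acinar markers, of which 10 of 12 were tested, had medians of 0.23 and 0.08 at 32 weeks and of 0.14 and -0.45 at 8 weeks on this scale. Their summed level, most of it Muc19, was 23242 and 19301 CPM at 32 weeks, against 14856 and 15649 CPM at 8 weeks. Of the 10 tested, 7 were lowest in 8-week replicate 2 and 2, Slc12a2 and Ano1, were highest there. Agr2, a disulfide isomerase needed for mucin folding, was the most uneven of them and was chosen after its values were seen, at 49.6 and 49.7 CPM at 32 weeks, against 57.2 and 5.59 CPM at 8 weeks. The part of cell makeup in the GalNAc-transferase levels was not tested.

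**Figure D2:**
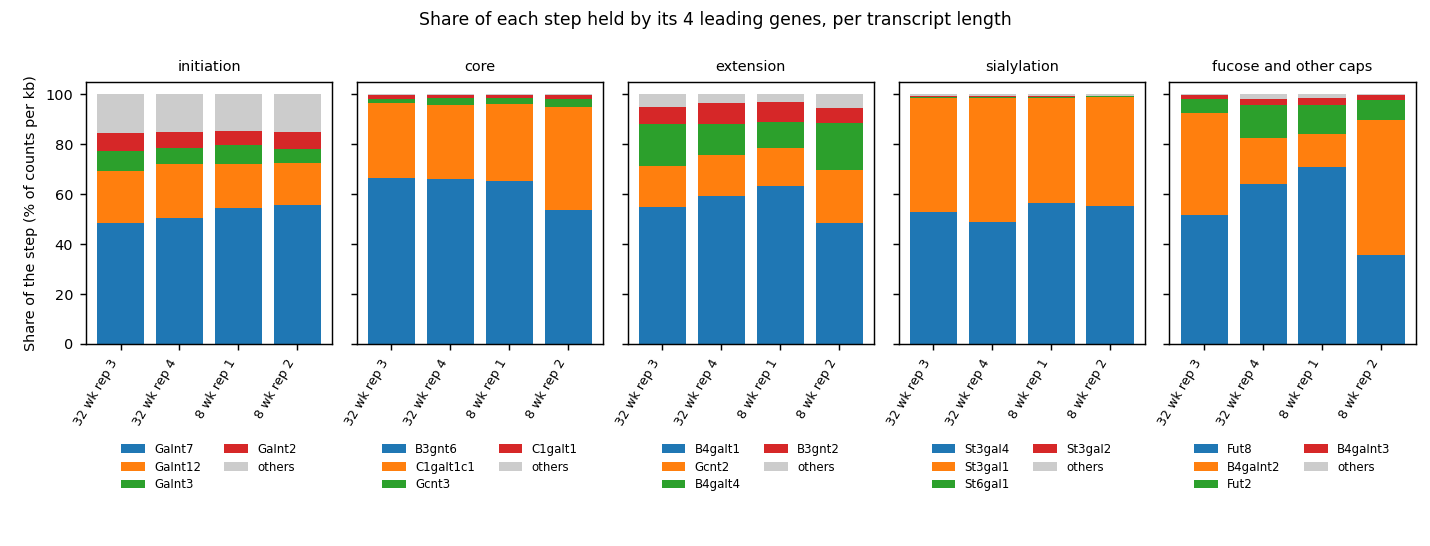
Share of each step (% of counts per kilobase of transcript) held by its 4 leading genes and by the others in each library, 32-week libraries left and 8-week libraries right. Galnt7 holds 48.5% to 55.5% of initiation, and B4galnt2 holds 13.1% to 54.1% of the last step.

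B3gnt6 led the core step. B3gnt6, the core 3 synthase known from mucin-secreting gut epithelium, had 147 and 129 CPM at 32 weeks, against 141 and 83.9 CPM at 8 weeks. Only 8-week replicate 2 was low. Its per-length share of the core step was 66.3% and 66.1% at 32 weeks and 65.2% and 53.5% at 8 weeks. C1galt1c1, a chaperone gene counted in this step, held 30.3% and 29.7% at 32 weeks and 30.9% and 41.4% at 8 weeks. B3gnt6 lies on chromosome 7 (105340930 to 105347991, minus strand).

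C1galt1, the only known core 1 synthase of mice, was far lower than the core 3 synthase. It stood at 3.94 and 2.68 CPM at 32 weeks, against 2.51 and 2.83 CPM at 8 weeks, from 34 to 57 counts. The ages overlapped. Per length, B3gnt6 was 38.6 and 49.8 times C1galt1 in the 32-week libraries and 58.0 and 30.7 times C1galt1 in the 8-week libraries. C1galt1c1, the chaperone Cosmc that C1galt1 protein needs to fold, was in contrast well expressed, with 41.1 and 35.4 CPM at 32 weeks, against 40.8 and 39.7 CPM at 8 weeks. Per length it exceeded C1galt1 by 17.6 to 27.5-fold.

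The branching enzymes of cores were low. Gcnt3, which makes core 2 and core 4 branches in mucous epithelia, had 6.22 and 9.25 CPM at 32 weeks, against 9.89 and 8.91 CPM at 8 weeks. Per length, Gcnt3 and C1galt1 overlapped, at 1.45 to 2.30 and 1.02 to 1.61 CPM per kilobase. Gcnt1, the widely expressed core 2 enzyme, had 9 and 16 counts at 32 weeks, against 13 and 9 counts at 8 weeks. Gcnt4, a further core 2 enzyme, had 0 counts in each library, which allows at most 0.221 CPM.

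B4galt1 led extension. B4galt1, a galactosyltransferase that adds galactose to N-acetylglucosamine, lies on chromosome 4 (40751635 to 40801038, minus strand). It had 63.2 and 75.8 CPM at 32 weeks, against 87.4 and 49.6 CPM at 8 weeks, and the 8-week libraries were again the extremes. Its per-length share among B4galt1, B4galt4 and B4galt5 was 75.4% and 81.0% at 32 weeks and 84.6% and 71.3% at 8 weeks. The share leaves out relatives that are not among the listed enzyme genes, B4galt3 being the highest of them. B4galt3 had 24.1 and 23.3 CPM at 32 weeks, against 19.3 and 36.7 CPM at 8 weeks. Its mean of 12.3 CPM per kilobase lay between 17.3 for B4galt1 and 4.34 for B4galt4. B4galt2, B4galt6 and B4galt7, also left out, had means of 0.248, 1.11 and 3.44 CPM per kilobase. B4galt4, a relative that can act on sulfated N-acetylglucosamine, had 11.3 and 9.31 CPM at 32 weeks, against 8.34 and 11.1 CPM at 8 weeks. B4galt5, known mainly as a lactosylceramide synthase, had 18 and 30 counts at 32 weeks, against 21 and 12 counts at 8 weeks.

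Gcnt2, the enzyme of I-branching on lactosamine chains, was steady, its highest library exceeding its lowest by 1.13-fold. It stood at 19.2 and 20.6 CPM at 32 weeks, against 21.5 and 21.7 CPM at 8 weeks. Both 32-week libraries lay below both 8-week libraries, by a log2 fold change of -0.11 (SE 0.18, edgeR adjusted p = 0.999). Among genes tested, 14.2% showed this order and 14.4% the reverse one.

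Enzymes that extend with N-acetylglucosamine were scarce. B3gnt2, the main lactosamine-extending enzyme, had 5.94 and 8.26 CPM at 32 weeks, against 8.19 and 4.70 CPM at 8 weeks, and it shares 2449 exonic bases with Commd1 on the same strand. B3gnt3, which extends core 1, had 3.25 and 1.92 CPM at 32 weeks, against 2.07 and 3.45 CPM at 8 weeks. B3gnt7, known from keratan sulfate synthesis, and B3gnt5, which starts lacto-series glycolipids, had 0 to 5 counts per library. Within the 5 B3gnt genes, B3gnt6 held 92.7% to 95.2% of the per-length level.

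Sialylation rested on a pair of genes. St3gal1, which adds sialic acid to the galactose of core 1, had 916 and 948 CPM at 32 weeks, against 919.7 and 878 CPM at 8 weeks. Its highest library exceeded its lowest by 1.08-fold, against a median of 1.58 for the 32 enzyme genes tested and of 1.47 for all 12810 genes tested. St3gal1 lies on chromosome 15 (66934437 to 66945922, minus strand), and per length it ranked at place 241 of 20336 genes with a coding transcript length. Among the 4 libraries it thus stood high and nearly level.

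St3gal4, which adds sialic acid to lactosamine ends, lies on chromosome 9 (34854164 to 34924395, minus strand) and had 399 and 356 CPM at 32 weeks, against 470.4 and 420.4 CPM at 8 weeks. Both 32-week libraries lay below both 8-week libraries, and its log2 fold change was -0.24 (SE 0.23). The 95% interval ran between -0.79 and 0.31, and the edgeR adjusted p was 0.999. Leaving out 1 library at a time gave -0.31 to -0.15. Among the 32 enzyme genes tested, Gcnt2 and St3gal4 were those whose ages did not overlap, with 2 of 32 below and 0 of 32 above, against 14.2% and 14.4% of all genes tested. Per length, St3gal4 was 1.15 and 0.991 times St3gal1 in the 32-week libraries and 1.35 and 1.26 times St3gal1 in the 8-week libraries. By counts alone St3gal1 was the larger of the pair in each library, so their order rests on the annotated transcript lengths of 5353 bases for St3gal1 and 2029 bases for St3gal4.

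The other 8 sialyltransferases were minor, each under 2 CPM per kilobase in every library. St3gal2, which like St3gal1 acts on core 1, had 4.22 and 4.77 CPM at 32 weeks, against 4.50 and 3.11 CPM at 8 weeks, and St3gal1 was 163 to 232 times higher per length. St3gal6 ranged from 1.38 to 2.28 CPM, and 1603 of its exonic bases are shared with Dcbld2 on the opposite strand. St3gal3 had 4 to 12 counts per library. St6galnac2 and St6galnac4, which sialylate the GalNAc itself, and St6galnac6, known mainly from gangliosides, ranged from 1.11 to 2.35 CPM. St6galnac1, the sialyl-Tn synthase, had 3 and 6 counts at 32 weeks, against 3 and 1 counts at 8 weeks.

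St6gal1 differed more between libraries of an age than between the ages. St6gal1, which sialylates N-glycans and is abundant in B cells and plasma cells, had 4.91 and 8.67 CPM at 32 weeks, against 8.34 and 1.93 CPM at 8 weeks. The 8-week libraries differed by 4.31-fold and enclosed 32-week replicate 3. The log2 fold change was 0.41 (SE 0.60), its 95% interval ran between -0.99 and 1.82, and the edgeR adjusted p was 0.999. Leaving out 32-week replicate 3 gave 0.77 and leaving out replicate 4 gave -0.06, while leaving out 8-week replicate 1 gave 1.82 and leaving out replicate 2 gave -0.28. The 10 B cell and plasma cell markers, none at 0 in all libraries and 7 of them tested, summed to 556 and 855 CPM at 32 weeks, against 975 and 94.4 CPM at 8 weeks. Jchain, the antibody joining chain, made up most of that sum, with 512 and 799 CPM at 32 weeks, against 920.2 and 73.7 CPM at 8 weeks. The part of these cells in the St6gal1 level was not tested.

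The last step held the gene with the widest spread among those tested. B4galnt2, which caps sialylated chains with N-acetylgalactosamine to form the Sda antigen, had 17.8 and 4.48 CPM at 32 weeks, against 3.25 and 28.4 CPM at 8 weeks. These are 257 and 77 counts at 32 weeks, against 44 and 411 counts at 8 weeks, and 1 library of each age was high. Within an age the libraries differed by 3.97-fold at 32 weeks and by 8.74-fold at 8 weeks. Its log2 fold change was -0.52 (SE 0.90), the 95% interval ran between -2.63 and 1.58, and the edgeR adjusted p was 0.999. Leaving out 32-week replicate 3 gave -1.81 and leaving out replicate 4 gave 0.16, while leaving out 8-week replicate 1 gave -1.37 and leaving out replicate 2 gave 1.76. B4galnt2 lies on chromosome 11 (95727257 to 95776205, minus strand) and shares 263 exonic bases with Gm11534 on the opposite strand.

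Marker lists of 2 epithelial cell types are given beside B4galnt2. Duct cell markers, 17 genes with none at 0 in all libraries, summed to 3537 and 2688 CPM at 32 weeks, against 3274 and 5886 CPM at 8 weeks. Serous and demilune markers, 11 genes of which Bpifa1 was at 0, summed to 526162 and 355969 CPM at 32 weeks, against 380149 and 437381 CPM at 8 weeks. Both sums were higher in 32-week replicate 3 than in replicate 4 and higher in 8-week replicate 2 than in replicate 1, as was B4galnt2, but their members were not uniform. That order was shown by 8 of 16 duct and 7 of 10 serous and demilune markers tested, against 27.0% of all genes tested. Klk1, a kallikrein, was the largest part of the duct sum, which without it was 1362 and 1380 CPM at 32 weeks, against 1269 and 1559 CPM at 8 weeks. In the serous and demilune list, Smgc, with 41973 and 125863 CPM at 32 weeks, against 142077 and 73277 CPM at 8 weeks, ran opposite to B4galnt2. Spt1, a salivary protein gene, did so too, with 3102 and 36104 CPM at 32 weeks, against 65020 and 3654 CPM at 8 weeks. Their part in its level was not tested.

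**Figure D3:**
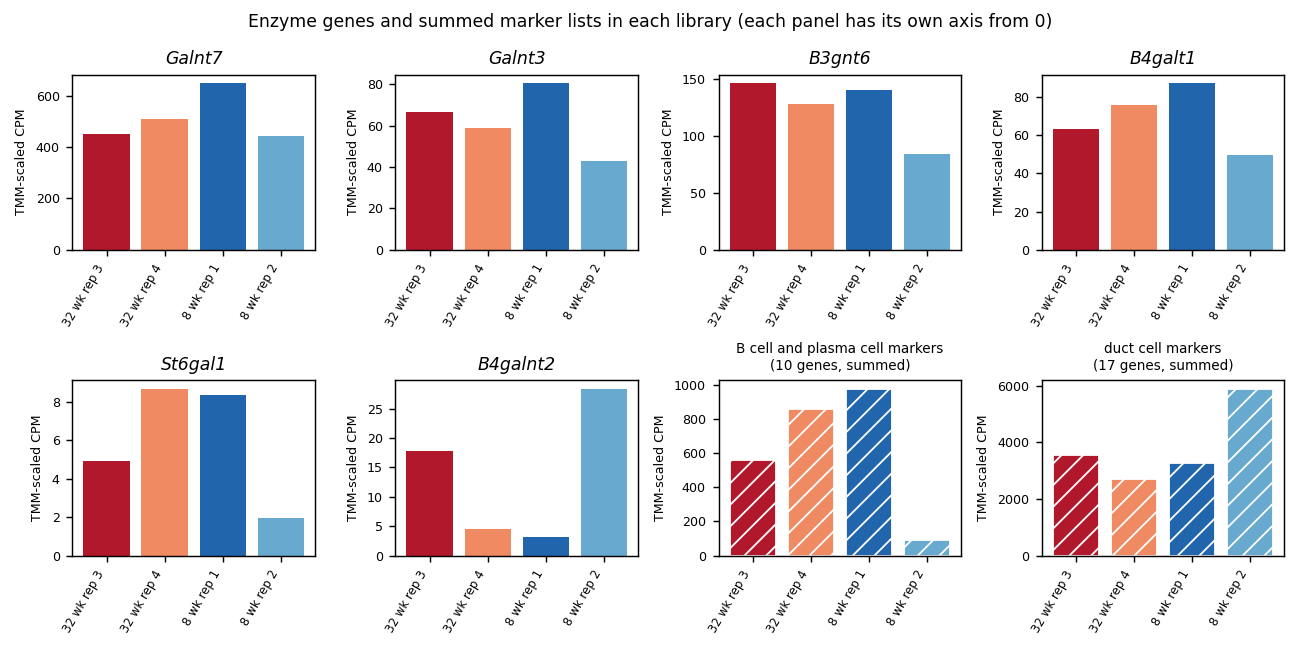
TMM-scaled CPM in each library of 6 enzyme genes and, hatched, of summed B cell and plasma cell markers and duct cell markers, with 32-week libraries left of 8-week libraries. St6gal1 is lowest in 8-week replicate 2 (1.93 CPM), where the B cell and plasma cell sum is 94.4 CPM, and B4galnt2 is highest there (28.4 CPM). Klk1 is the largest part of the duct cell sum.

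Fut8, which puts core fucose on N-glycans and not on mucin-type chains, led this step per length in 3 of the 4 libraries. It had 43.7 and 29.8 CPM at 32 weeks, against 34.5 and 36.3 CPM at 8 weeks. In 8-week replicate 2 B4galnt2 held 54.1% of the step per length and Fut8 35.5%. By counts alone Fut8 led in each library, with 48.8% against 38.2% for B4galnt2 in 8-week replicate 2. Their order there rests on the annotated transcript lengths of 1722 bases for B4galnt2 and 3358 bases for Fut8. Fut2, the secretor enzyme that adds the fucose of H antigen in epithelia, had 4.08 and 5.35 CPM at 32 weeks, against 5.02 and 7.46 CPM at 8 weeks. The ages overlapped. Fut2 had a log2 fold change of -0.40 (SE 0.31), an interval between -1.13 and 0.33, and an edgeR adjusted p of 0.999. Its relative Fut1 had 1 and 11 counts at 32 weeks, against 6 and 2 counts at 8 weeks. B4galnt3, which makes the LacdiNAc cap, ranged from 19 to 29 counts, and Gal3st1, the sulfatide sulfotransferase, had 1 count in each library. Gcnt2, St6galnac2, Galnt6, Galnt11, St6gal1 and St3gal4 share 83 to 497 exonic bases with a gene on the opposite strand, and the strand setting of the counts is unknown here.

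None of the enzyme genes passed the test of age. With edgeR's quasi-likelihood test, 0 of the 32 genes kept by the low-count filter were higher and 0 were lower at 32 weeks at an adjusted p of 0.05, where 0% of all 12810 genes tested were called. None of the 32 had an unadjusted p under 0.05, which 1.36% of all genes tested had, and the smallest unadjusted p was 0.235. limma-voom called 0 of 32, as it called 0% of all genes tested, and had 0 at an unadjusted p under 0.05, which 1.38% of all had. DESeq2 called 0 of 39, where it called 0.0166% of 18104 genes, and had 0 at an unadjusted p under 0.05, which 0.492% of all had. The 8 genes kept out by the filter were Galnt14, Gcnt4, B3gnt5, B3gnt7, St3gal3, St6galnac1, Fut1 and Gal3st1.

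Log2 fold changes of 32 over 8 weeks ran from -0.52 for B4galnt2 to 0.41 for St6gal1, with 16 positive and 16 negative. Their median was 0.01, against -0.01 over all genes tested, and the median absolute value was 0.14, against 0.18. For 30 of the 32 genes the larger difference between libraries of 1 age exceeded the difference between the age means on the log2 scale, the exceptions being Gcnt2 and St3gal4, and this held for 83.4% of all genes tested. By step, the median was 0.02 over 9 initiation genes, -0.01 over 5 core genes, 0.05 over 6 extension genes, -0.01 over 8 sialylation genes and -0.36 over 4 genes for fucose and other caps.

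The widths of the intervals set what these libraries could show. The 95% interval lay within 1 on the log2 scale, that is within a doubling or halving, for 21 of the 32 genes, as for 66.8% of all genes tested. It did so for each of the 9 initiation genes, for 3 of 5 core, 4 of 6 extension, 4 of 8 sialylation and 1 of 4 capping genes. The interval was -0.84 to 0.46 for Galnt7, -0.36 to 0.95 for B3gnt6, -0.66 to 0.70 for B4galt1 and -0.54 to 0.65 for St3gal1. Changes between these bounds, 0 among them, are compatible with these libraries at the 95% level.

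The remaining genes named for their size of change also overlapped between the ages. Galnt12 had a log2 fold change of 0.27 (SE 0.26), with 0.00 after leaving out 8-week replicate 2 and 0.62 after leaving out replicate 1. C1galt1 had 0.30 (SE 0.35), with 0.01 after leaving out 32-week replicate 3 and 0.56 after leaving out replicate 4. B4galt5 had 0.34 (SE 0.48), with -0.04 after leaving out 8-week replicate 2 and 0.85 after leaving out replicate 1. Each had an edgeR adjusted p of 0.999.

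**Figure D4:**
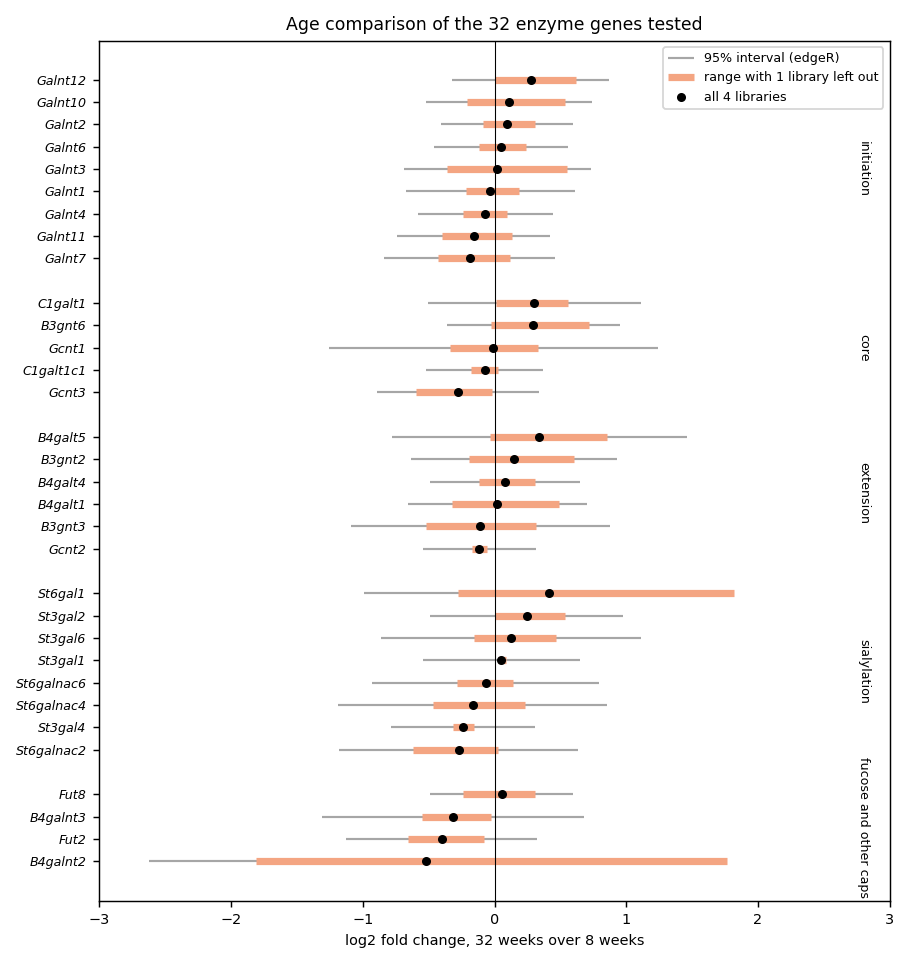
Log2 fold change of 32 over 8 weeks for the 32 enzyme genes tested (points), with the edgeR 95% interval (grey) and the range when 1 library is left out (orange). Every grey interval crosses 0, and the orange ranges of St6gal1 (-0.28 to 1.82) and B4galnt2 (-1.81 to 1.76) are the widest.

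Other genes of the pathway, taken from 8 lists, gave no call either. Of 99 genes tested on these lists with edgeR, none was higher and none was lower at an adjusted p of 0.05, and every adjusted p was 0.999. Galk1, Pgm3 and Prol1 were the 3 with an unadjusted edgeR p under 0.05, which 1.36% of all genes tested had. limma-voom called 0 of 99 and DESeq2 0 of 125. Each had 2 under that level, beside 1.38% and 0.492% of all genes tested, in that order. Sialic acid supply had 5 positive and 4 negative genes (median log2 fold change 0.23), and UDP-sugar supply 5 positive and 12 negative (median -0.18). Fucose supply had 5 positive and 8 negative (median -0.15), and N-glycan processing 7 positive and 5 negative (median 0.05). Golgi structure had 9 positive and 13 negative (median -0.04), other extending and capping transferases 9 and 9 (median 0.01), other Galnt paralogs 1 and 2 (median -0.14), and mucin acceptors 1 and 4 (median -0.48).

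Genes of sugar supply also varied between libraries of an age. Gne, which makes the sialic acid precursor, had 642 and 761 CPM at 32 weeks, against 763 and 969 CPM at 8 weeks. Slc35a1, which carries activated sialic acid into the Golgi, had 86.7 and 94.5 CPM at 32 weeks, against 90.9 and 134 CPM at 8 weeks. Both Gne and Slc35a1 were highest in 8-week replicate 2. Gfpt1, the first enzyme of UDP-N-acetylglucosamine synthesis, had 861 and 862 CPM at 32 weeks, against 1098 and 525 CPM at 8 weeks. It was lowest in 8-week replicate 2, and Gne, Slc35a1 and Gfpt1 were chosen after their values were seen.

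The gene with the largest fold change in each list is described by its values. Pgm3, an enzyme of UDP-N-acetylglucosamine synthesis, had 19.3 and 23.9 CPM at 32 weeks, against 26.0 and 38.2 CPM at 8 weeks. Its fitted fold change was -0.57 on the log2 scale (SE 0.24), which did not pass (edgeR adjusted p = 0.999). Neu1, the lysosomal sialidase, had 36.6 and 35.0 CPM at 32 weeks, against 32.0 and 22.9 CPM at 8 weeks. Cog5, a subunit of the Golgi tethering complex, had 2.83 and 3.84 CPM at 32 weeks, against 4.28 and 7.39 CPM at 8 weeks. For Pgm3, Neu1 and Cog5 the ages did not overlap. Of the 99 pathway genes tested, both 32-week libraries lay above both 8-week libraries for 13 (13.1%) and below for 19 (19.2%), beside 14.4% and 14.2% of all genes tested.

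Galnt18 had 2.70 and 2.56 CPM at 32 weeks, against 2.07 and 2.21 CPM at 8 weeks. Fuk, which salvages fucose, had 5.88 and 8.43 CPM at 32 weeks, against 5.39 and 5.11 CPM at 8 weeks. Abo, the blood group transferase, had 1.94 and 3.20 CPM at 32 weeks, against 4.58 and 3.25 CPM at 8 weeks, and Mgat5, an N-glycan branching enzyme, had 8 to 23 counts per library. Galnt18 and Fuk were thus higher and Abo lower in both 32-week libraries than in both 8-week libraries, and they are among the 13 and the 19 genes just counted. None passed the test.

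Among mucin acceptors the ages overlapped for Smgc and not for Muc19 and Prol1. Muc19 had 20281 and 16721 CPM at 32 weeks, against 12021 and 13869 CPM at 8 weeks. Smgc, which overlaps Muc19 on the genome, had 41973 and 125863 CPM at 32 weeks, against 142077 and 73277 CPM at 8 weeks. Their counts are not independent where exons are shared. Prol1, a mucin-like salivary protein, had 145 and 7 counts at 32 weeks, against 2658 and 2946 counts at 8 weeks. Its log2 fold change was -5.28 (SE 1.02, edgeR adjusted p = 0.999), with -8.90 after leaving out 32-week replicate 3 and -4.32 after leaving out replicate 4. Among the submandibular and parotid secretory genes, 13 of 17 were tested, 3 with a positive and 10 with a negative fold change (median -1.23). Both 32-week libraries lay below both 8-week libraries for 6 of them and above for 0, beside 14.2% and 14.4% of all genes tested. None of the 13 passed, and their part in the Prol1 values was not tested.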

How the data were processed

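RNA was measured by sequencing in 4 sublingual gland libraries made with the TruSeq RNA kit, per the labels. The authors aligned reads with STAR to mm9, per the submitters' processing notes. The version, counting tool, annotation, strand setting and treatment of reads with several matches are unknown here, being not given in the sources used, so counts of overlapping genes are uncertain. The deposited values are raw read counts per gene symbol. Everything else was computed here in R 4.3.3, where edgeR 4.0.16's quasi-likelihood test used TMM factors, age as the only term and genes kept by filterByExpr. P-values were adjusted by the Benjamini-Hochberg method over 12810 genes, with a threshold of 0.05. DESeq2 1.42.0, limma-voom (limma 3.58.1), other scalings and filters, and each library left out were alternatives. The code was tested on simulated counts.

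Levels between genes are per kilobase of the longest coding transcript in GENCODE vM1 on NCBIM37, the assembly that mm9 names, where all 40 symbols matched. The enzyme genes and all lists were chosen with earlier results of these data known. Genes described in full are, per step, the 2 highest per length and the largest absolute fold change, the 5 largest ratios of highest to lowest CPM, and in each pathway list the largest absolute fold change (mean of at least 1 CPM for each but the first), with Muc19, Smgc and Prol1. Other genes are given by their range or counts. Figures were drawn with matplotlib.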

Additional observations from a re-analysis of the deposited data

How the results depend on the processing

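No enzyme gene passed the threshold under any alternative run. Over all genes, the count past the threshold was 0 in the fit described and with RLE factors, the 10 most abundant genes left out of the scaling, the CPM filter or limma-voom. It was 10 with total counts only, 7 with no low-count filter, 3 with DESeq2, and 3 to 15 with 1 library left out, where the lone library is assumed to vary like the other age. The median log2 fold change of the enzyme genes ranged from -0.11 to 0.12 with 1 library left out. No paired analysis was possible because the ages share no replicate number.

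With total counts only, 7 small positive fold changes turned negative: St3gal1 (-0.032), Galnt2 (-0.0018), Galnt3 (-0.081), Galnt6 (-0.044), B4galt1 (-0.058), B4galt4 (-0.016) and Fut8 (-0.057). The sign of 23 of the 32 fold changes depended on 1 library. With 1 left out they ranged from -0.22 to 0.19 for Galnt1, -0.087 to 0.30 for Galnt2, -0.36 to 0.55 for Galnt3, -0.24 to 0.094 for Galnt4, -0.11 to 0.24 for Galnt6, -0.43 to 0.12 for Galnt7, -0.21 to 0.54 for Galnt10 and -0.40 to 0.13 for Galnt11. They ranged from -0.18 to 0.029 for C1galt1c1, -0.34 to 0.33 for Gcnt1, -0.024 to 0.72 for B3gnt6, -0.19 to 0.60 for B3gnt2, -0.52 to 0.32 for B3gnt3, -0.32 to 0.49 for B4galt1, -0.12 to 0.31 for B4galt4 and -0.036 to 0.85 for B4galt5. For sialylation and caps they were -0.16 to 0.47 for St3gal6, -0.28 to 1.82 for St6gal1, -0.62 to 0.023 for St6galnac2, -0.47 to 0.23 for St6galnac4, -0.29 to 0.14 for St6galnac6, -0.24 to 0.31 for Fut8 and -1.81 to 1.76 for B4galnt2. The cause was not tested.

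The mean share of Galnt7 in initiation, 52.3% per transcript length, was 48.9% with merged exon length, 57.7% of counts, and 51.2% to 53.6% with 1 library left out. Without division by length, B3gnt6 held 70.1% of the core step and 92.6% of the B3gnt genes. St3gal4 fell behind St3gal1 there, with 30.6% of sialylation and 30.8% of the St3gal genes. St6galnac6, at 45.0% of the St6galnac genes per transcript length, held 37.2% with merged exons and 35.8% of counts, where St6galnac2 led.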

Other observations

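B3galt5 and Mgat4a, transferases outside the 40 genes, showed the same high libraries as B4galnt2. Of all genes tested, 27.0% were higher in 32-week replicate 3 than in replicate 4 and in 8-week replicate 2 than in replicate 1. B3galt5, a galactosyltransferase that extends chains ended by N-acetylglucosamine, had 135 and 56.5 CPM at 32 weeks, against 47.7 and 167 CPM at 8 weeks. Its mean of 19.2 CPM per kilobase was above the 17.3 of B4galt1, which led the listed extension genes. Mgat4a, an N-glycan branching enzyme, had 347 and 129 CPM at 32 weeks, against 141 and 269.9 CPM at 8 weeks. In both genes 32-week replicate 3 and 8-week replicate 2 were high, and the log2 fold changes by age were -0.17 (SE 0.59) and 0.21 (SE 0.48), each with an edgeR adjusted p of 0.999. Both changed sign when 1 library was left out, ranging from -0.92 without 32-week replicate 3 to 1.01 without 8-week replicate 2 for B3galt5. For Mgat4a they ranged from -0.67 without 32-week replicate 3 to 0.75 without 8-week replicate 2, and also 0.75 without 32-week replicate 4. B3galt5 and Mgat4a were chosen after their values were seen.

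Galntl6, a GalNAc-transferase family member not among the 40 genes, was expressed per transcript length at a level close to that of Galnt2. It had 25.6 and 27.1 CPM at 32 weeks, against 29.4 and 28.7 CPM at 8 weeks, and a mean of 15.3 CPM per kilobase, beside 14.9 for Galnt2. In CPM the means were 27.7 for Galntl6 and 61.1 for Galnt2, so the closeness rests on the annotated transcript lengths. Galnt5 had 14.7 and 15.1 CPM at 32 weeks, against 15.3 and 20.9 CPM at 8 weeks. Galntl6 and Galnt5 were chosen after their values were seen. Pmm2, which makes the mannose phosphate used for GDP-fucose and N-glycans, had 436 and 379 CPM at 32 weeks, against 383 and 525 CPM at 8 weeks, and was likewise chosen after its values were seen.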
